A study of Mus musculus with 222 samples.

Results

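The libraries described here are 7 bulk RNA-seq libraries of mouse XY primordial germ cells (PGCs) from which Eed had been deleted, called ECKO: 3 from E13.5 and 4 from E11.5 (E, embryonic day). They were taken by their stage, sex and genotype labels from the 222 samples of the series, and no measured value was used to choose them. The cross joined Eed fl/fl mothers carrying the Oct4-GFP reporter with Eed fl/+ fathers carrying Blimp1-Cre, on a mixed C57BL/6;129S1/SvlmJ background, so that every embryo, Control embryos included, inherits a floxed allele from its mother. Blimp1-Cre acts in PGCs and in some other embryonic cells, and the reporter marks cells with activity of the Oct4 promoter. GFP-positive cells were sorted from trypsin-digested gonads, and their RNA was amplified before sequencing. At each stage 4 Control libraries, labelled wild type, are set beside the ECKO libraries.

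EED belongs to the core of the Polycomb complex PRC2, an enzyme that methylates histone H3 on lysine 27 and keeps developmental genes silent. At E11.5 PGCs have just settled in the genital ridge, still express pluripotency genes and still divide. By E13.5 an XY germ cell lies inside a testis cord, turns down pluripotency genes, turns on germ cell genes such as Dazl and Ddx4, and is about to enter the long mitotic arrest in which the male programme of Nanos2 and Dnmt3l begins. The question put to the 7 libraries is how far cells without EED follow that course.

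The ECKO libraries held 8887996 to 10086715 counts at E13.5 and 8607927 to 13139650 at E11.5, and the Control libraries 4903492 to 12425911 and 9112396 to 14974853. Stage and deposited table cannot be told apart, since each stage has a table of its own. Counts of the ribosomal RNA gene Rn45s took 2.30%, 13.1% and 8.57% of the E13.5 ECKO libraries, against 11.7% to 20.7% of those at E11.5, and Controls likewise held 1.66% to 2.73% at E13.5 and 10.1% to 22.5% at E11.5. Lars2 took 1.945% to 2.78% of the counts in E13.5 ECKO libraries and 0.20% to 0.33% at E11.5, with 2.54% to 4.83% and 0.21% to 0.33% in Controls. E13.5 ECKO library 1 stood apart, with 12839 genes detected against 15197 and 15574 in libraries 2 and 3. Its log2 CPM (read counts scaled to library size) correlated at 0.84 and 0.80 with ECKO libraries 2 and 3, which correlated with each other at 0.89, and at 0.80 to 0.86 with the 4 E13.5 Control libraries, a description across genes. E11.5 ECKO library 4 held the most counts of interstitial and mesenchymal markers. Among Controls, E13.5 library 3 was the most distant from its group, with 11716 genes detected against 13900 to 15154 in the others. It correlated with them at 0.87 to 0.89, while they correlated with each other at 0.92 to 0.95. Control ranges and means at E13.5 below include it. The labels do not say whether replicates came from separate embryos, so p-values measure the spread between libraries, which may be technical.

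**Figure D1:**
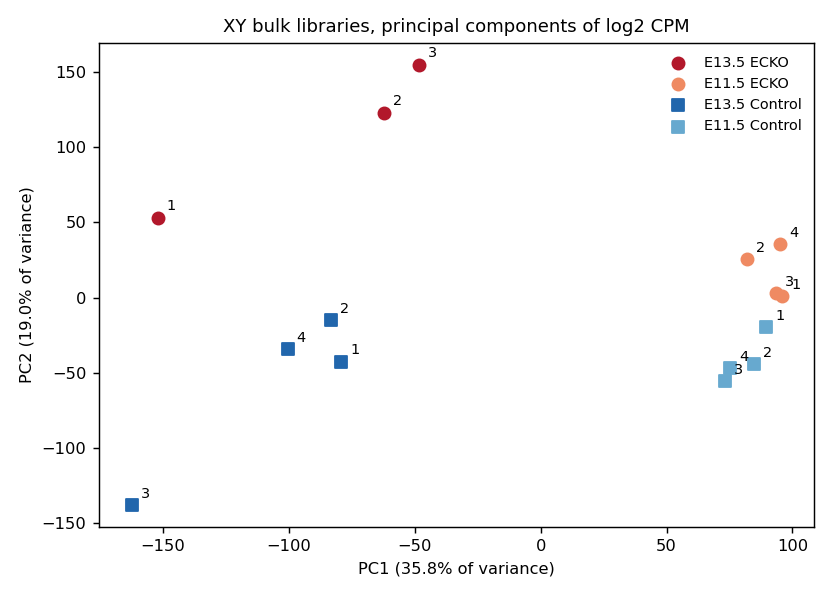
First and second principal component of log2 CPM in the 15 XY bulk libraries, over the 14447 genes that passed the filter on low counts. Each axis gives its share of variance. Points are libraries, numbered by replicate, circles ECKO and squares Control. PC1 (35.8%) separates the E13.5 libraries from the E11.5 libraries in both genotypes, and PC2 (19%) sets the E13.5 ECKO libraries above every other library.

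Eed itself was at 2.99, 13.8 and 11.3 CPM in the E13.5 ECKO libraries, against 15.8, 33.1, 37.0 and 47.0 CPM in the E11.5 ECKO libraries. It stood at 59.98 to 121 CPM in the E13.5 Controls and 77.8 to 138 CPM in the E11.5 Controls. Every ECKO library thus lay below every Control library, and every E13.5 ECKO library below every E11.5 one. The step between the stages in ECKO, a log2 change of -1.80 (SE 0.63), missed the threshold (adjusted p = 0.0637, edgeR quasi-likelihood test with Benjamini-Hochberg adjustment over all genes). It passed with DESeq2 and in a fit of all 15 libraries, where the log2 changes were -1.79 and -1.82. The counts are per gene, so reads from parts that the deletion leaves would still be counted.

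Within ECKO cells, 1424 of 13364 tested genes were higher at E13.5 than at E11.5 and 1323 were lower (10.7% and 9.9%, called at an adjusted p under 0.05 in edgeR's quasi-likelihood test). The same comparison in Control cells called 2356 of 11918 genes higher and 2230 lower (19.8% and 18.7%). Of the 11681 genes tested in both, 893 were called higher in both genotypes, which is 69.3% of the ECKO calls and 38.2% of the Control calls, and 813 were called lower in both, 67.9% and 36.7%. In the other direction, 7 genes higher in ECKO were called lower in Control, and 6 lower in ECKO were called higher in Control. The E13.5 and E11.5 ECKO groups did not overlap for 34.7% of the genes tested. The median log2 change over all genes tested was -0.02 in ECKO and -0.05 in Control. Without E11.5 ECKO library 1, 2 or 3 the ECKO count of lower genes was 759, 801 or 831. Without E13.5 ECKO library 1 the ECKO course had 1804 genes higher and 1897 lower. Without E13.5 Control library 3 the Control course had 2718 genes higher and 2959 lower. Call counts depend on the number and spread of libraries, which differ between the genotypes, so they do not measure how far ECKO cells follow the Control course. Scaled by total counts without Rn45s, higher genes made up 38.4% of the ECKO calls and 30.8% of the Control calls, against 51.8% and 51.4% here, and the median gene moved to -0.24 and -0.49. Changes below are relative to the median gene. Each course had its own filter on low counts, so the members of a list tested in ECKO and in Control can differ. List counts below stand beside the shares of all genes tested, 10.7% higher and 9.9% lower in ECKO and 19.8% and 18.7% in Control.

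Genes of transposon defence in germ cells rose in ECKO cells. Of 37 tested genes of the piRNA pathway and transposon defence list, 22 rose in ECKO cells and 1 fell, with a median log2 change of 2.01. In Control cells 13 of 33 rose and 4 fell, with a median of 0.94. The members tested differ between the courses, so the medians are over unlike sets. Without the 2 ECKO libraries that stand apart, E13.5 ECKO 1 and E11.5 ECKO 4, 25 rose and 1 fell in ECKO.

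Dazl, which encodes an RNA-binding protein that licenses PGCs for gametogenesis, was at 627, 472 and 433 CPM in E13.5 ECKO cells, against 8.77, 75.7, 9.40 and 57.3 CPM at E11.5. Its log2 change was 3.78 (SE 0.68, adjusted p = 0.00326), and in Control cells 4.42. The groups did not overlap, and the levels at E11.5 fell into a low and a high pair. Ddx4, the germ cell RNA helicase also called mouse vasa homologue, averaged 379 ± 57.8 CPM in E13.5 ECKO cells and 102 ± 32.4 CPM at E11.5 (SD, n = 3 and 4), with Control cells at 339 ± 68.2 and 103 ± 19 CPM (n = 4 each). For both genes the ECKO and Control courses were close in size, and the difference between them was not called (-0.65, adjusted p = 0.698, and 0.16, adjusted p = 0.855).

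Other germ cell genes rose to levels above those of Controls. Mael, a component of the piRNA machinery of nuage, was at 344, 371 and 492 CPM in E13.5 ECKO cells, against 18.7, 29.9, 20.02 and 18.2 CPM at E11.5, a log2 change of 4.24 (SE 0.29, adjusted p = 1.25e-05). Tdrd1, a Tudor scaffold of piRNA proteins, was at 387, 525 and 943 CPM, against 53.5, 57.9, 45.4 and 50.0 CPM, a log2 change of 3.61 (SE 0.32, adjusted p = 5.78e-05). In neither gene did any E11.5 library reach the lowest E13.5 library. In Controls Mael averaged 90.6 ± 37.6 CPM at E13.5 and 9.44 ± 1.22 CPM at E11.5, and Tdrd1 65.4 ± 41.2 and 10.9 ± 7.82 CPM (n = 4 each), so that ECKO cells already stood above Controls at E11.5 in both genes. Their courses in the 2 genotypes were not called different (0.95, adjusted p = 0.224, and 0.99, adjusted p = 0.44).

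The 4 members of this list with a steeper course in ECKO cells than in Controls were chosen here after their values were seen. Across all genes the test of the difference of courses, an interaction term over the 15 libraries, called 71 of 14447 genes more positive in ECKO (0.491%) and 102 more negative (0.706%), 1.2% in all. Those counts rest on single libraries: they were 482 and 785 without E13.5 ECKO library 1, 13 to 29 and 17 to 46 without any other single ECKO library, 34 and 50 without E13.5 Control library 4, and 18 to 24 and 16 to 31 without any one E11.5 Control library. The more positive genes made up 41.0% of these calls, and 57.8% when scaled by total counts without Rn45s. Mov10l1, the RNA helicase that starts piRNA processing, was at 326, 572 and 1021 CPM in E13.5 ECKO cells, against 39.0, 71.9, 43.9 and 60.4 CPM at E11.5. Controls averaged 107 ± 52.9 CPM at E13.5 and 46.1 ± 15.7 CPM at E11.5, and the difference of the log2 changes was 2.35 (SE 0.53, adjusted p = 0.0367). Tdrd9, a helicase needed to silence LINE elements, was at 15.8, 48.9 and 212 CPM, against 0.185 to 3.38 CPM, while no Control library passed 4.96 CPM, and the difference was 6.78 (SE 1.35, adjusted p = 0.0229). Morc1, an ATPase of transposon repression, was at 80.3, 267 and 290 CPM, against 31.2 to 39.3 CPM, and the difference was 2.97 (SE 0.55, adjusted p = 0.0144). Piwil2, the PIWI protein of fetal germ cells, was at 173, 397 and 515 CPM, against 63.4 to 111 CPM, with Controls at 29.7 to 131 CPM at E13.5 and 81.0 to 120 CPM at E11.5, and the difference was 2.28 (SE 0.55, adjusted p = 0.0459). In all 4 genes E13.5 ECKO library 1 was the lowest of its group and still above every E11.5 ECKO library. The differences of Mov10l1 and Piwil2 missed the threshold in most fits that leave out a library, with adjusted p up to 0.117 and 0.129, whereas that of Morc1 passed in each. That of Tdrd9 missed it without E13.5 ECKO library 3, E11.5 ECKO library 3 or E11.5 Control library 2.

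Piwil4, the nuclear PIWI protein of male fetal germ cells, was at 4.54, 23.9 and 61.9 CPM, against 0.462 to 5.03 CPM, so that library 1 lay inside the E11.5 range. It rose by a log2 change of 3.20 (adjusted p = 0.0315), a call lost without E13.5 ECKO library 2 or 3 or any one E11.5 ECKO library. Pld6, a mitochondrial phospholipase of piRNA maturation, was the single member that fell, by -2.76 (adjusted p = 0.0457), and that call was lost without E13.5 ECKO library 2 or any one E11.5 ECKO library.

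**Figure D2:**
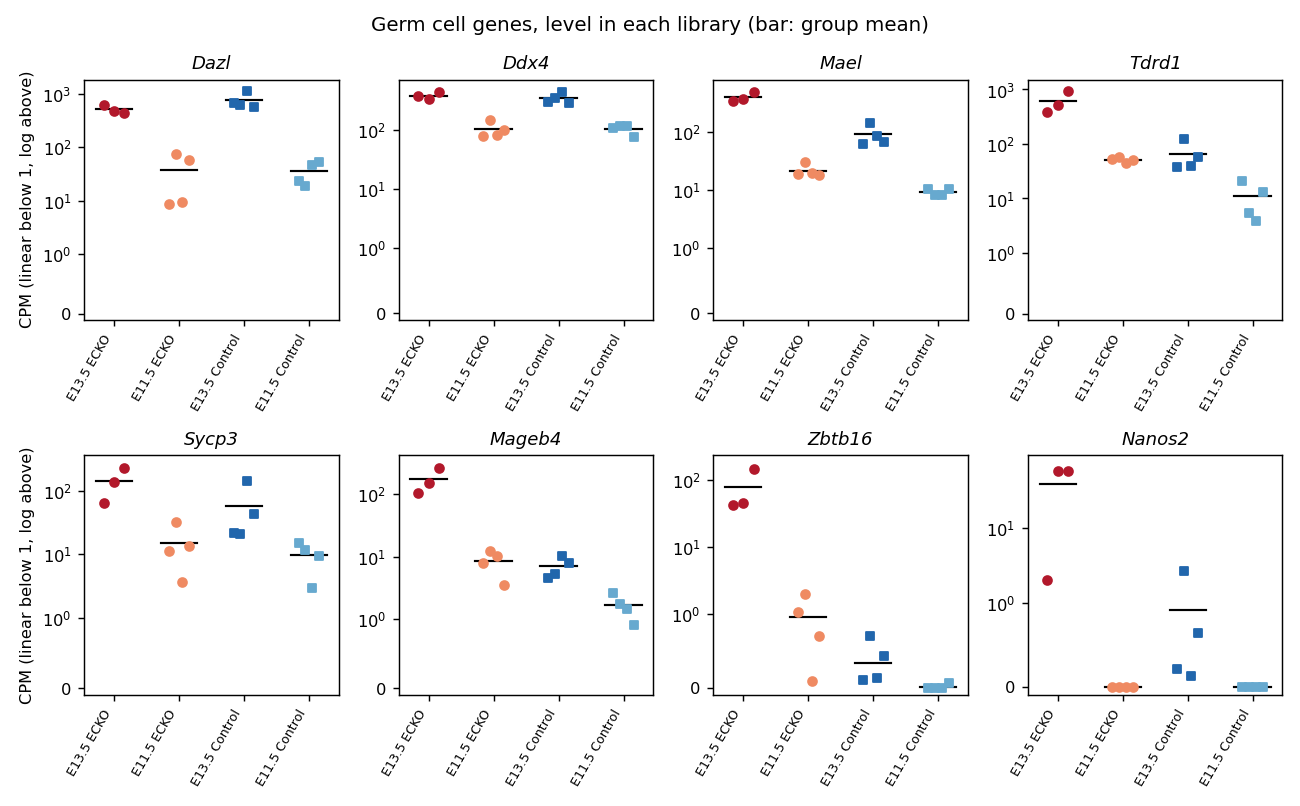
Level of 8 germ cell genes in CPM (linear below 1, log scale above) in each E13.5 ECKO, E11.5 ECKO, E13.5 Control and E11.5 Control library; points are libraries and the bar is the group mean. Dazl and Ddx4 are near Control at both stages, Mael and Tdrd1 are above Control at both stages, and Zbtb16, Mageb4 and Nanos2 are highest in E13.5 ECKO cells.

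Genes of meiosis rose more often than they fell. Of 41 tested members 14 rose in ECKO cells and 3 fell, with a median log2 change of 1.26, and in Controls 14 of 34 rose and 2 fell, with a median of 0.99. Without the 2 libraries that stand apart 17 rose and 4 fell, and without E13.5 ECKO library 2 alone 9 rose and 2 fell. Sycp3, an axial element protein of meiotic chromosomes, was at 63.7, 140 and 225 CPM in E13.5 ECKO cells, against 11.3, 32.3, 3.63 and 13.3 CPM at E11.5, with a log2 change of 3.27 (SE 0.63, adjusted p = 0.00488). Sycp1, which joins homologous axes, was at 338, 136 and 166 CPM, against 4, 21.97, 1.02 and 6.14 CPM, with a log2 change of 4.71 (SE 0.78, adjusted p = 0.00218). The groups did not overlap in either gene, and the Control log2 changes were 2.55 and 4.10. Smc1b, a meiotic cohesin subunit, rose by 2.51 and Brdt, a testis bromodomain protein, by 3.51, against 3.25 and 2.50 in Controls. Among the members that fell were Psmc3ip (-1.72) and Syce2 (-1.15), a protein of the synaptonemal complex, and Syce2 lost its call without E13.5 ECKO library 2 or 3 or E11.5 ECKO library 1, 2 or 3. No member of the meiosis list was called different between the courses.

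Stra8, the retinoic acid target that starts meiosis, was not among the genes that rose. It was at 1.08, 2.80 and 2.03 CPM in E13.5 ECKO cells, against 6.38, 14.9, 6.52 and 14.1 CPM at E11.5, and at 0 to 0.435 CPM in E13.5 Controls and 0.0654 to 0.94 CPM in E11.5 Controls. The ECKO groups did not overlap, but the log2 change of -2.38 (SE 0.89) missed the threshold (adjusted p = 0.0802). It passed with DESeq2.

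The promoters of 4 genes are shown because these genes rose in the deleted cells and differ in base composition: 3 germ cell genes whose promoters hold CpG dinucleotides and Nanos2, whose window holds none. They run from 250 bases before to 50 after the annotated start, from RefSeq in GRCm38.p6: Sycp3 at chr10:88459337-88459636 on the plus strand, Mael at chr1:166238695-166238994 on the minus strand, Ddx4 at chr13:112652261-112652560 on the minus strand, and Nanos2 at chr7:18987274-18987573 on the plus strand. Capitals mark CACGTG, an E-box, and GCGGGAA or its reverse complement TTCCCGC, an E2F-type motif; both strands were searched and the marked matches do not overlap.
Sycp3: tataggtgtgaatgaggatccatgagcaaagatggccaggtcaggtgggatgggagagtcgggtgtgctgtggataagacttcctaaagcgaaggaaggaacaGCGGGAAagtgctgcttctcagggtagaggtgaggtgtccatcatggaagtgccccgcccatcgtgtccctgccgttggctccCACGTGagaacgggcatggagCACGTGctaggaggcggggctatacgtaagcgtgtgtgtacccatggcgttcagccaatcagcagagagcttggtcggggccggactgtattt
Mael: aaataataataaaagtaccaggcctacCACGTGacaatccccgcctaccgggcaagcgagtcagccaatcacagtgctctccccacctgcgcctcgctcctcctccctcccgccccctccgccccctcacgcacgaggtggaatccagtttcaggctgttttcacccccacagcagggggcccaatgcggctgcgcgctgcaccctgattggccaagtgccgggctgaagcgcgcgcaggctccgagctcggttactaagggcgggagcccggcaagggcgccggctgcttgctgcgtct
Ddx4: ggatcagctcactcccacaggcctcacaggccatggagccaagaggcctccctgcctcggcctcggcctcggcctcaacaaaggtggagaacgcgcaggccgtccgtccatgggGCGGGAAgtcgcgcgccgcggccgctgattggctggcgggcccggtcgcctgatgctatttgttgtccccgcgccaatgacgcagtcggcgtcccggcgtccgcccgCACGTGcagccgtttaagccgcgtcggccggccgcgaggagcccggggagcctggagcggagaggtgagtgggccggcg
Nanos2: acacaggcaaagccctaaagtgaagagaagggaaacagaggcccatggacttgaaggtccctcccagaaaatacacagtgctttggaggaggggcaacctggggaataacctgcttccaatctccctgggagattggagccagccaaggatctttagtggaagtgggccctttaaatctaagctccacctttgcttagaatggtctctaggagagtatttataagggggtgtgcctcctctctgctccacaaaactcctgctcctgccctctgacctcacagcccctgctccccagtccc
The Sycp3, Mael and Ddx4 windows hold 15, 24 and 38 CpG dinucleotides and the Nanos2 window 0. An E-box was in 8 of the 37 meiosis list promoters with a window (21.6%), against 7.24% of all 27025 promoters, and GCGGGAA in 10 (27.0%), against 4.66%. Over the genes tested in the ECKO course that had a window, 10653 of 13364, the shares were 10.4% and 8.80%. The median ratio of observed to expected CpG was 0.71 in the meiosis list, 0.77 in the tested genes and 0.39 in all promoters. Tested genes with a window came to 79.7%, under the 80% needed here for a comparison, so these shares are a description. These are matches of letters, and binding was not measured.

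The male programme was uneven. Of 28 tested genes of male germ cell fate and Nodal signalling, 6 rose and 7 fell in ECKO cells, and 8 of 25 rose and 8 fell in Controls. Without the 2 libraries that stand apart the counts in ECKO were 5 higher and 8 lower. Without E11.5 ECKO library 1 3 members fell, and without E13.5 ECKO library 2 or E11.5 ECKO library 2 or 3, 4 fell. Nanos2, the RNA-binding regulator of the male germ cell fate, was at 2.03, 57.0 and 56.7 CPM in E13.5 ECKO cells, and no E11.5 ECKO library had a count of it. Set against a floor of 3 counts over the E11.5 group, it was at least 572-fold higher at E13.5 (adjusted p = 0.00213). Control libraries had 0.128 to 2.70 CPM at E13.5 and 0 at E11.5, so ECKO library 1 lay inside the Control range and libraries 2 and 3 far above it. Dnmt3l, the cofactor of de novo DNA methylation in male germ cells, was at 2.03, 8.83 and 13.6 CPM at E13.5 and 0 in each E11.5 ECKO library, at least 121-fold higher (adjusted p = 0.00659). It was at 0 to 0.641 CPM in E13.5 Controls and at 0 at E11.5. Neither gene passed the filter on low counts in the Control course.

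Bnc2, a zinc finger protein of male germ cells, was at 404, 395 and 418 CPM in E13.5 ECKO cells, against 3.08, 7.97, 2.89 and 8.46 CPM at E11.5, a log2 change of 6.21 (SE 0.44, adjusted p = 1.28e-05), and it rose by 7.29 in Controls. Tex101, a surface protein of male germ cells, was at 39.1, 54.6 and 254 CPM, against 3.38, 15.02, 10.7 and 21.8 CPM. In Controls it was at 0.214 to 2.26 CPM at E13.5 and 3.95 to 14.8 CPM at E11.5, so it rose by 3.22 in ECKO cells (adjusted p = 0.00892) and fell by 3.37 in Controls. The difference of 6.49 (SE 1.08, adjusted p = 0.00703) was called under every setting tried; the rise within ECKO alone was not called without E13.5 ECKO library 3. Nanos3, the NANOS protein of early PGCs, stood at 10.3 to 12.6 CPM in E13.5 ECKO cells, against 9.87 to 18.4 CPM at E11.5, and did not pass the test, while Controls were at 0 to 2.35 CPM at E13.5 and 16.9 to 33.3 CPM at E11.5. The difference for Nanos3 was 4.40 (SE 1.06, adjusted p = 0.0459) and was lost under 13 of 24 settings.

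Of the Nodal pathway, the ligand and its transcription factor fell. Nodal, the ligand, was at 9.68, 5.17 and 1.23 CPM in E13.5 ECKO cells, against 24.8 to 39.7 CPM at E11.5, with a log2 change of -2.62 (adjusted p = 0.0202) that was not called without E13.5 ECKO library 2 or E11.5 ECKO library 1, 3 or 4. Foxh1, the transcription factor that reads the signal, was at 1.23 to 1.51 CPM, against 28.1 to 44.0 CPM, and fell by 4.61 (SE 0.59, adjusted p = 0.000499). Lefty2, a feedback inhibitor, was at 130, 60.5 and 9.60 CPM, against 131 to 251 CPM; its change of -1.43 missed the threshold (adjusted p = 0.125) and passed without E13.5 ECKO library 1. Lefty1, the second feedback inhibitor, had overlapping levels of 3.96 to 33.8 CPM and 4.19 to 40.5 CPM (log2 change 0.21, adjusted p = 0.903).

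Genes of spermatogonia and later germ cells rose far more often than they fell. Of 32 tested members 17 rose in ECKO cells and 1 fell, with a median of 2.06. In Controls 9 of 22 rose and 3 fell, with a median of 1.35. These medians are over unlike members, since genes high in E13.5 ECKO cells alone can pass the filter in the ECKO course only. Without the 2 libraries that stand apart 19 rose and 1 fell. Mageb4, an X-linked MAGE gene of the germ line, was at 103, 153 and 261 CPM in E13.5 ECKO cells, against 8, 12.2, 10.2 and 3.52 CPM at E11.5, a log2 change of 4.37 (SE 0.47, adjusted p = 0.000215), with Controls at 4.50 to 10.1 CPM and 0.915 to 2.63 CPM. Zbtb16, which encodes the PLZF factor of spermatogonial stem cells, was at 43.2, 46.5 and 148 CPM, against 0.0931 to 1.95 CPM, a log2 change of 6.38 (SE 0.80, adjusted p = 0.000461), and no Control library passed 0.696 CPM. In both genes each E13.5 ECKO library lay well above each library of the other 3 groups. Tex14, of the intercellular bridge, rose by 2.19 and Usp26, an X-linked ubiquitin protease of the testis, by 3.84, against 2.52 and 3.12 in Controls. Taf7l, a germ cell form of a TFIID subunit, had the one called difference on this list (4.55, SE 1.01, adjusted p = 0.0321), at 42.7, 130 and 140 CPM against 4.69 to 14.4 CPM; the difference was lost under 11 of 24 settings.

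Genes of the early programme fell more often than they rose. Of 42 tested genes of pluripotency and early PGCs, 15 fell in ECKO cells and 3 rose, with a median of -0.87, and in Controls 13 of 41 fell and 8 rose, with a median of -0.15. Without E13.5 ECKO library 1 25 fell, and without E11.5 ECKO library 1 or 3, 9 fell. Nanog was at 49.1, 22.2 and 8.90 CPM in E13.5 ECKO cells, against 143, 112, 155 and 61.2 CPM at E11.5, Pou5f1 at 32.6, 51.6 and 10.7 CPM, against 143, 73.5, 194 and 95.0 CPM, and Sox2 at 22.4, 21.9 and 13.4 CPM, against 131, 84.9, 110 and 64.4 CPM. These 3 core pluripotency factors fell by 2.11 (adjusted p = 0.0178), 1.97 (adjusted p = 0.02) and 2.32 (adjusted p = 0.00191), each without overlap between the groups. The calls of Nanog and Pou5f1 were lost without E11.5 ECKO library 1 or 3, and that of Nanog without E13.5 ECKO library 2. In Controls Nanog and Sox2 fell by 1.61 and 1.602 and Pou5f1, at 43.9 to 68.0 CPM and 49.9 to 88.5 CPM, did not pass the test.

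Tfap2c, the AP-2 factor of early PGCs, was at 4.78, 1.72 and 7.22 CPM in E13.5 ECKO cells, against 235, 170, 193 and 190 CPM at E11.5, a log2 change of -5.38 (SE 0.48, adjusted p = 5.78e-05). Controls kept 12.6 to 24.3 CPM at E13.5, against 162 to 215 CPM at E11.5, and the difference of -2.12 (SE 0.47, adjusted p = 0.0319) was lost under 14 of 24 settings. Alpl, the alkaline phosphatase by which PGCs are stained, had log2 changes of -3.51 in ECKO cells and -3.48 in Controls, both called. The 3 members that rose were Otx2 (4.54), Sall1 (1.77) and Cdh1 (1.17), which encode 2 developmental transcription factors and E-cadherin, and Cdh1 lost its call without E13.5 ECKO library 2 or E11.5 ECKO library 3 or 4. Rhox6 and Rhox9, X-linked homeobox genes of PGCs, lost most of their counts. Rhox9 was at 8.97, 2.80 and 0.352 CPM in E13.5 ECKO cells, against 356 to 433 CPM at E11.5, and Rhox6 at 0.239 to 5.20 CPM, against 224 to 340 CPM. They fell by 6.54 (adjusted p = 0.00037) and 6.55 (adjusted p = 0.000203), with log2 changes of -4.04 and -4.97 in Controls. Of 9 tested Rhox genes 3 fell in ECKO cells, and of 8 tested 4 fell in Controls.

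Among 32 tested genes of the retinoic acid and BMP response 10 fell and 2 rose in ECKO cells, and of 23 tested 9 fell and 4 rose in Controls. Id3 and Id2, BMP-induced inhibitors of helix-loop-helix factors, fell by 3.00 (adjusted p = 0.00135) and 4.65 (adjusted p = 0.00543), with log2 changes of -4.38 and -4.01 in Controls. Crabp1, which binds retinoic acid in the cytoplasm, fell by 2.91 (adjusted p = 0.00264). Rarb, a retinoic acid receptor that is itself a retinoic acid target, was at 0 to 0.108 CPM in E13.5 ECKO cells, against 6.46 to 21.6 CPM at E11.5 (adjusted p = 0.00264). Bmpr1a, a BMP receptor, was at 65.6 to 110 CPM in E13.5 ECKO cells and 76.7 to 118 CPM at E11.5, and at 181 to 343 CPM in E13.5 Controls and 75.4 to 101 CPM in E11.5 Controls (difference -1.50, SE 0.37, adjusted p = 0.0459, lost under 18 of 24 settings).

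Among genes of cell division nearly all that were called in ECKO cells were lower at E13.5, and 2 members were called in the difference of courses. Of 40 tested members of the DNA replication and mitosis list, 12 fell in ECKO cells and 1 rose, while in Controls 11 fell and 14 rose. The medians were -0.54 and -0.05. Without E13.5 ECKO library 1 24 fell and 0 rose, and without E11.5 ECKO library 1, 3 or 4, 7 fell. Rrm2, the ribonucleotide reductase subunit that supplies S phase, was at 17.5, 23.3 and 11.6 CPM in E13.5 ECKO cells, against 204, 266, 203 and 197 CPM at E11.5, a log2 change of -3.61 (SE 0.33, adjusted p = 7.6e-05). In Controls it was at 92.4 to 149 CPM and 299 to 325 CPM, and the difference of -2.15 (SE 0.35, adjusted p = 0.00592) was called under every setting tried. Mcm2, of the replicative helicase, had the other called difference (-1.19, SE 0.29, adjusted p = 0.0471), lost under 19 of 24 settings. Birc5, a subunit of the chromosomal passenger complex, fell by 2.29, Cenpa, the centromeric histone, by 1.94 and Cdc6, the origin licensing factor, by 2.21, with log2 changes of -1.33 and -0.76, and of -0.83, which missed the threshold, in Controls.

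Mki67, the proliferation marker Ki-67, showed how far the E13.5 ECKO libraries spread. It was at 2286, 585 and 309 CPM, against 1109 to 1225 CPM at E11.5, with library 1 above and libraries 2 and 3 below the E11.5 range. The log2 change was -0.12 (SE 0.52, adjusted p = 0.893), and a fall was called without library 1. Controls were at 2745 to 5951 CPM at E13.5 and 1122 to 1396 CPM at E11.5 and rose by 1.66; the difference of -1.79 (SE 0.58) missed the threshold (adjusted p = 0.116). Cenpe, a mitotic kinesin and the one member called higher, had the same spread, at 1254, 353 and 329 CPM against 243 to 307 CPM (1.28, adjusted p = 0.0484), and its call was lost under 9 settings, among them without library 1.

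Of 12 cyclins and kinases of G1, 5 fell and 1 rose in ECKO cells, and 6 fell and 2 rose in Controls. Without E13.5 ECKO library 2 or any one of E11.5 ECKO libraries 1 to 3, 2 or 3 fell. E2f1, the S-phase transcription factor, was at 22, 19.8 and 31.4 CPM in E13.5 ECKO cells, against 93.0, 120, 234 and 181 CPM at E11.5, a log2 change of -2.65 (SE 0.38, adjusted p = 0.00101), and Ccne1, cyclin E1, fell by 2.43 (adjusted p = 0.0117). Rb1, the retinoblastoma protein that holds E2F in check, was at 278, 136 and 111 CPM, against 43.4 to 58.6 CPM, and rose by 1.71 (SE 0.34, adjusted p = 0.00527), with 1.52 in Controls. Cdkn1a, the p21 inhibitor, was at 13.6, 10.2 and 53.3 CPM, against 121 to 168 CPM, and fell by 2.38 (SE 0.52, adjusted p = 0.00929), with levels in Controls of 25.9 to 31.9 CPM and 48.2 to 70.9 CPM. Of 11 tested cell cycle inhibitors 1 rose and 2 fell. Cdkn1b and Cdkn1c did not pass the test: Cdkn1b, p27, was at 5.14 to 18.4 CPM and 14.8 to 21.9 CPM, and Cdkn1c, p57, at 40.1 to 168 CPM and 25.2 to 194 CPM, with the groups overlapping in both.

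**Figure D3:**
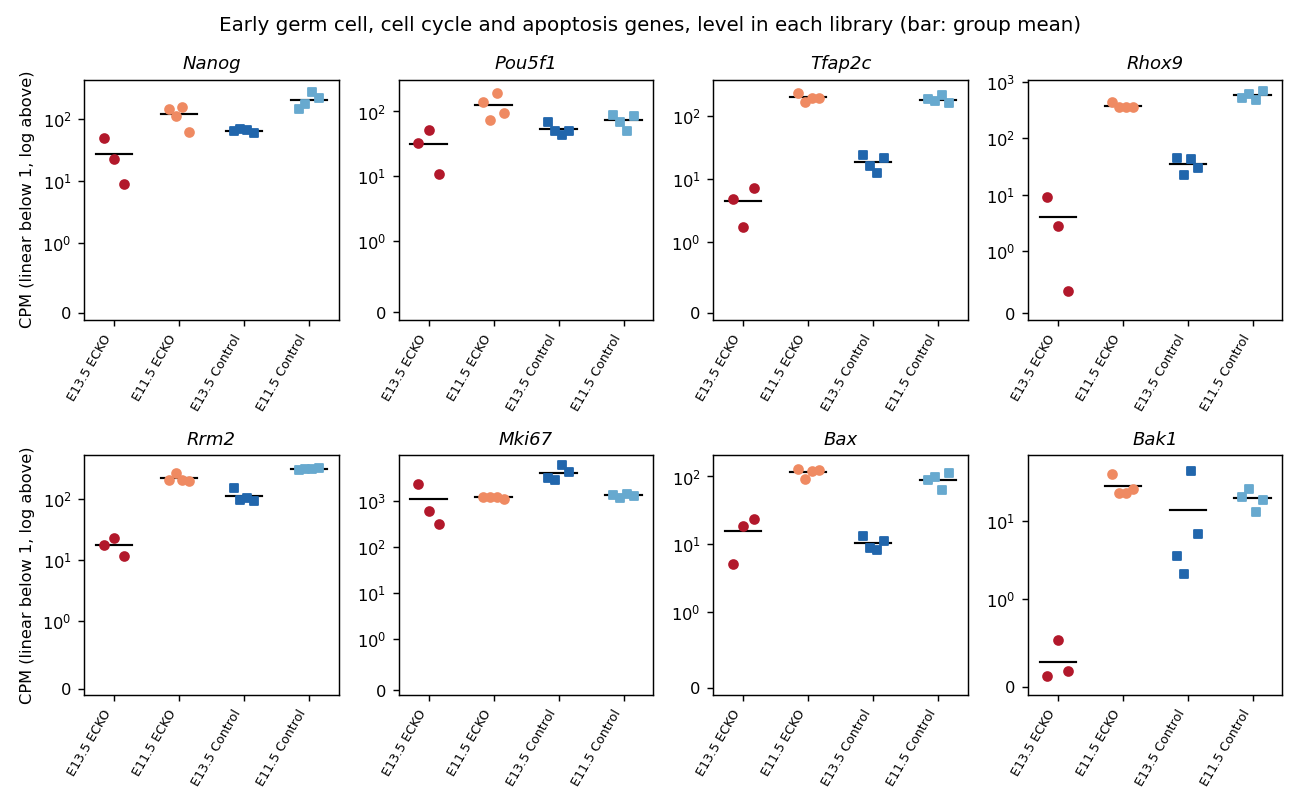
Level of 8 genes in CPM (linear below 1, log scale above) in each E13.5 ECKO, E11.5 ECKO, E13.5 Control and E11.5 Control library; points are libraries and the bar is the group mean. Tfap2c, Rhox9, Rrm2 and Bak1 reach lower levels in E13.5 ECKO cells than in any other group, and the 3 E13.5 ECKO libraries of Mki67 spread from 2286 to 309 CPM.

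Some apoptosis genes rose and others fell. Of 35 tested p53 targets and apoptosis genes 3 rose and 6 fell in ECKO cells (8.57% and 17.1%, against 10.7% and 9.9% of all genes tested). The median log2 change was -0.03, against -0.02 over all genes. In Controls 10 of 33 rose and 6 fell (30.3% and 18.2%, against 19.8% and 18.7%). Without E13.5 ECKO library 1 11 fell. Bax, a mitochondrial effector of cell death, was at 5.14, 18.5 and 23.96 CPM in E13.5 ECKO cells, against 128, 92.3, 121 and 124 CPM at E11.5, a log2 change of -2.84 (SE 0.48, adjusted p = 0.00232), and of -3.08 in Controls. Bak1, its partner effector, was at 0.12, 0.538 and 0.176 CPM, against 39.1, 22.3, 22.4 and 25.1 CPM, a log2 change of -6.53 (SE 0.84, adjusted p = 0.000511). In Controls Bak1 had 2.09 to 42.1 CPM at E13.5 and 12.98 to 25.5 CPM at E11.5 and did not pass the test, and the difference was -6.06 (SE 1.22, adjusted p = 0.0246), lost under 7 of 24 settings. Mdm2, the ubiquitin ligase of p53, rose by 1.16, and by 1.58 in Controls. Pmaip1, the BH3-only protein NOXA, was at 107, 78.0 and 28.6 CPM, against 14.1 to 40.1 CPM, with Controls at 19.06 to 34.3 CPM and 0.433 to 1.88 CPM; its difference of -2.98 (SE 0.73, adjusted p = 0.0471) came with ECKO cells above Controls at E11.5 and was lost under 18 of 24 settings. Ccng1, a p53 target, and Trp53 itself had differences of -2.13 (adjusted p = 0.0185, lost under 2 settings) and -1.46 (adjusted p = 0.0471, lost under 16). Both rose in Controls, by 2.39 and 0.71, and were not called in ECKO cells.

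Polycomb genes other than Eed shifted in part. Of 12 PRC2 subunits 2 rose and 3 fell in ECKO cells, and 5 fell without E13.5 ECKO library 1. Rbbp7, a histone-binding subunit, was at 380, 356 and 247 CPM, against 130 to 160 CPM, and rose by 1.26 (adjusted p = 0.00504). Phf19, a Polycomb-like accessory subunit, was at 14.9, 13.8 and 5.64 CPM, against 62.7 to 190 CPM, and fell by 3.40 (adjusted p = 0.000998), and Aebp2, another accessory subunit, fell by 1.41 (adjusted p = 0.00846) and changed by 0.04 in Controls, which was not called. Ezh2, the methyltransferase, was at 187, 79.0 and 58.8 CPM, against 117 to 197 CPM, and Suz12 at 259, 128 and 41.9 CPM, against 122 to 166 CPM, and neither passed the test (-0.54, adjusted p = 0.351, and -0.05, adjusted p = 0.949). A fall of Ezh2 was called without library 1. In Controls both rose, by 0.77 and 1.11. Of 22 PRC1 subunits 6 rose and 1 fell, with 4 higher without any one E11.5 ECKO library. Kdm2b, which brings a PRC1 variant to CpG islands, was at 172, 173 and 143 CPM, against 27.4 to 31.1 CPM, a log2 change of 2.53 (SE 0.26, adjusted p = 0.000166), and Bmi1, a PRC1 RING finger subunit, rose by 1.81 (adjusted p = 0.0053). In Controls they rose by 3.48 and 3.88, and for Bmi1 the difference of -2.09 (SE 0.51, adjusted p = 0.0459) was lost under 19 of 24 settings.

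Hox genes, classical PRC2 targets, were counted in ECKO cells at both stages. Of 39 genes 18 passed the filter on low counts in the ECKO course and 0 in the Control course. The filter was set per course, and genes could pass through the ECKO group where they were high, so these numbers are no like comparison. Among the 18, 3 rose and 1 fell (16.7% and 5.56%, against 10.7% and 9.9% of all genes tested). Their summed level was 198, 81.5 and 158 CPM in E13.5 ECKO cells, against 13.3, 44.9, 54.3 and 171 CPM at E11.5, on the scale of total counts. The groups overlapped through E11.5 library 4 (exact two-sided permutation p = 0.171, with 0.0571 the smallest p that 35 splits allow). Controls summed to 0.945 to 18.6 CPM at E13.5 and 8.09 to 51.0 CPM at E11.5. In the difference of courses 25 Hox genes were tested and 0 were called. Hoxc12 was at 50.7, 2.80 and 14.2 CPM at E13.5 and at 0 in each E11.5 ECKO library, at least 334-fold higher, and at least 126-fold higher without E13.5 ECKO library 1. Hoxb9 was at 24.1, 3.55 and 2.47 CPM, against 0 to 0.403 CPM (adjusted p = 0.0152), a call lost without E13.5 ECKO library 1. Hoxa5, the member that fell, had no count at E13.5 and 0.371 to 9.46 CPM at E11.5, at least 41.7-fold lower, a call lost without E13.5 ECKO library 2. That bound was 25.2-fold without E11.5 ECKO library 4 and 25.4-fold without E13.5 ECKO library 3. Without E13.5 ECKO library 3 or E11.5 ECKO library 1 or 4, 2 rose. Without both libraries that stand apart 5 Hox genes rose and 1 fell.

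Of 59 tested transcription factors of other lineages 6 rose and 7 fell (10.2% and 11.9%). These shares are near those of all genes tested (10.7% and 9.9%). Without E13.5 ECKO library 1 12 rose and 9 fell, without both libraries that stand apart 14 rose and 9 fell, and 3 or 4 fell without E13.5 ECKO library 2 or E11.5 ECKO library 2 or 4. Otx1 was at 14.8, 17.2 and 8.54 CPM in E13.5 ECKO cells, against 0 to 0.372 CPM at E11.5 (adjusted p = 0.00669). Gata2 was at 0, 1.62 and 4.05 CPM, against 30.4 to 68.5 CPM, and Isl2 at 0.359 to 0.969 CPM, against 16.4 to 26.2 CPM, and they fell by 4.67 (adjusted p = 0.00649) and 4.92 (adjusted p = 0.00209), with log2 changes of -3.08 and -4.08 in Controls. Hand1, a heart and trophoblast factor, was at 5.14, 0 and 0 CPM, against 17.7, 32.9, 29.7 and 50.8 CPM, with E11.5 Controls at 0.654 to 2.54 CPM. It fell by 4.24 (SE 1.38, adjusted p = 0.048), and that call was lost under 8 settings, among them DESeq2 and each fit without 1 library other than E13.5 ECKO library 1.

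**Figure D4:**
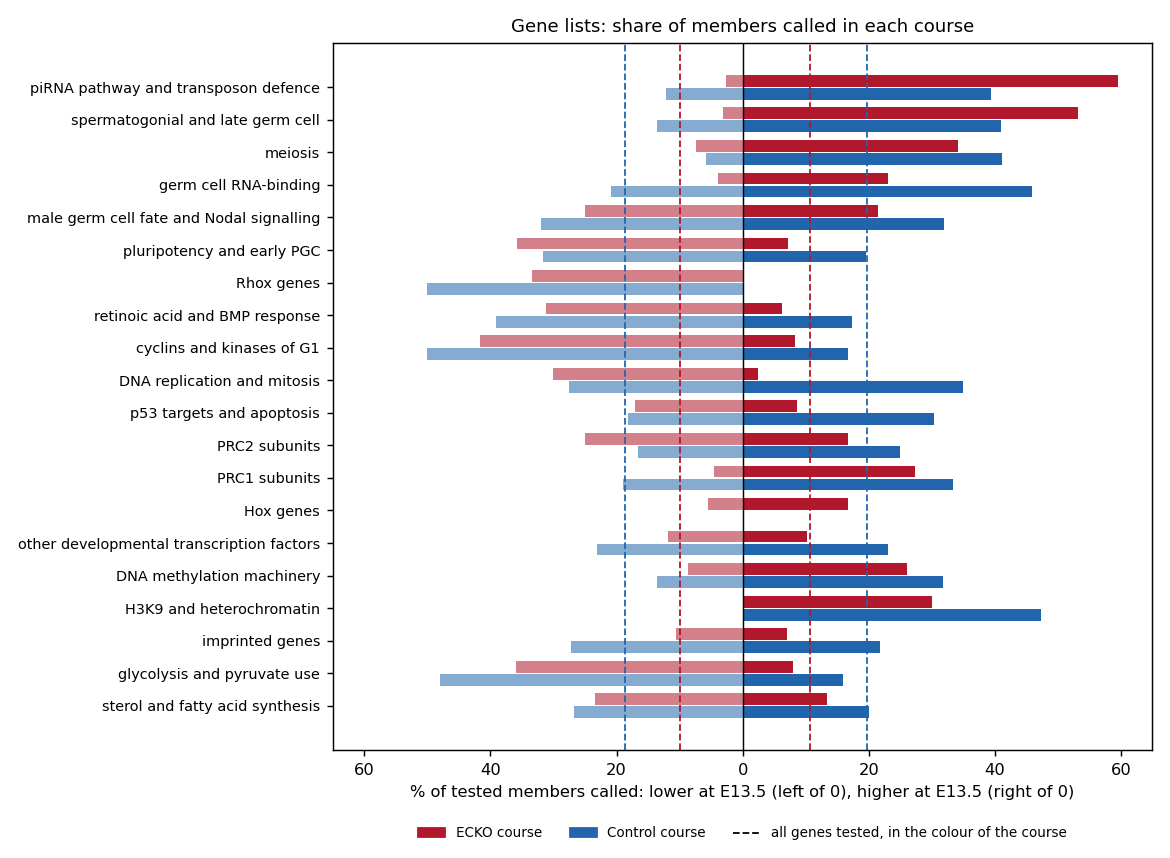
Share of the tested members of 20 gene lists called lower (left of 0) and higher (right of 0) at E13.5 than at E11.5, in percent, for the ECKO course (red) and the Control course (blue); dashed lines give the share of all genes tested. The piRNA list has 59.5% of its members higher in ECKO, against 10.7% of all genes, and the DNA replication and mitosis list has 2.5% higher in ECKO, where Control has 35%.

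Of 23 tested genes of the DNA methylation machinery 6 rose and 2 fell, and of 20 of H3K9 methylation and heterochromatin 6 rose and the other 14 were not called. In Controls 7 of 22 and 9 of 19 rose. The higher counts came to 3 and 2 when scaled by total counts without Rn45s. Of the DNA methylation genes 9 rose and 4 fell without E13.5 ECKO library 1, and the median log2 change was -0.17, against 0.16 with it. Without both libraries that stand apart the counts were 9 and 4 and the median was -0.16. The DNA methylation count of higher genes was also 3 without any one library other than E13.5 ECKO library 1 and E11.5 ECKO library 4, and the H3K9 count was 2 or 3 without E13.5 ECKO library 3 or E11.5 ECKO library 1, 2 or 3. Dnmt3b, a de novo methyltransferase, was at 34.3, 119 and 133 CPM in E13.5 ECKO cells, against 5.08, 25.8, 17.9 and 44.7 CPM at E11.5, so that library 1 overlapped with E11.5. It rose by 2.06 (adjusted p = 0.0378), a call lost under 7 settings, and Controls had 2.68 to 17.02 CPM and 1.67 to 7.71 CPM. Kdm1b, the H3K4 demethylase needed for methylation of imprints in oocytes, rose by 2.13 (adjusted p = 0.00465), and Cbx3, HP1 gamma, was at 619, 315 and 219 CPM, against 46.5 to 71.8 CPM, and rose by 2.81 (adjusted p = 0.000463). Mbd3, of the NuRD complex, fell by 2.85 (adjusted p = 0.00176). Controls moved by 2.78, 3.32 and -2.21.

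Imprinted genes, 57 of them tested, gave 4 higher and 6 lower. Lower counts were 10 without E13.5 ECKO library 1 and 2 without E11.5 ECKO library 1. Without both libraries that stand apart 8 rose and 9 fell. The summed imprinted genes were at 3932, 3158 and 3752 CPM in E13.5 ECKO cells, against 3464, 3898, 3792 and 8682 CPM at E11.5, on the scale of total counts, so that E11.5 library 4 was the highest and the groups overlapped. Slc38a4, a paternally expressed amino acid transporter, was at 34.3, 20.6 and 16.6 CPM, against 91.9 to 137 CPM, and fell by 2.33 (adjusted p = 0.00127). Inpp5f rose by 1.98 (adjusted p = 0.000619). The difference of courses called 3 members. Phlda2, a maternally expressed growth inhibitor of the placenta, was at 0, 20.4 and 22.1 CPM in E13.5 ECKO cells, against 152 to 216 CPM at E11.5, and at 0 to 0.214 CPM in E13.5 Controls, against 73.5 to 149 CPM (difference 7.78, SE 1.45, adjusted p = 0.0148, called under every setting tried). Peg10, a retrotransposon-derived gene, was at 54.9, 117 and 190 CPM, against 104 to 197 CPM, and at 1.66 to 19.25 CPM in E13.5 Controls, against 66.7 to 203 CPM (difference 3.89, SE 0.76, adjusted p = 0.0198, lost without E13.5 ECKO library 3 or E11.5 ECKO library 3). Peg3, a zinc finger gene, went the other way, at 445, 182 and 127 CPM, against 417 to 850 CPM, and at 779 to 1638 CPM in E13.5 Controls, against 516 to 698 CPM (difference -2.01, SE 0.48, adjusted p = 0.0459, lost under 17 of 24 settings).

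Genes of glycolysis fell more often than they rose in both genotypes. Of 25 tested genes of glycolysis and pyruvate use 9 fell and 2 rose in ECKO cells, and 12 fell and 4 rose in Controls. Slc2a3, a glucose transporter of PGCs, fell by 3.23 and Hk1, a hexokinase, by 3.76, with log2 changes of -3.88 and -2.31 in Controls. Gapdh was at 884, 772 and 666 CPM in E13.5 ECKO cells, against 17.9 to 26.2 CPM at E11.5, and at 816 to 1644 CPM in E13.5 Controls, against 12.3 to 28.1 CPM. Mrgpra6 was at 753 to 929 CPM in E13.5 ECKO cells, against 0 in each E11.5 library of either genotype, and at 466 to 1119 CPM in E13.5 Controls. Such steps are as large in Controls, and stage and deposited table cannot be told apart for them. In all, 9 symbols had at least 10 CPM in each E13.5 library and at most 3 counts over the 8 E11.5 libraries. The choice demanded the step in both genotypes, so the calls of all 9 in both courses are no separate result. In the difference of courses 0 were called. In sterol and fatty acid synthesis 4 of 30 genes rose and 7 fell, with 4 lower without E11.5 ECKO library 2 or 4. Acly, which makes cytosolic acetyl-CoA, was at 413, 404 and 557 CPM, against 96.5 to 139 CPM, and rose by 2.01 (adjusted p = 0.000406), with 1.65 in Controls. Pdk4, which inhibits pyruvate dehydrogenase, had a called difference of -8.04 (SE 1.71, adjusted p = 0.0277), at 0 to 0.0881 CPM against 3.22 to 18.8 CPM, with Controls at 0.255 to 13.9 CPM and 3.52 to 14.97 CPM; it was lost under 10 of 24 settings.

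Among the genes of largest change with no count in any E13.5 ECKO library, Sct, the hormone secretin, was at 27.1 to 44.7 CPM at E11.5, at least 340-fold lower at E13.5, and Rgcc, a regulator of the cell cycle, at 16.1 to 35.2 CPM, at least 222-fold lower. Folr1, a folate receptor, was at 6.75 to 21.3 CPM at E11.5, at least 135-fold lower. Each of the 3 genes also fell in Controls, where E13.5 libraries had 0 to 2.00 CPM. Ptn, the growth factor pleiotrophin, was at 3.23, 3.52, 56.1 and 48.7 CPM in E11.5 ECKO cells, at least 270-fold lower at E13.5, while Controls had 0.107 to 2.99 CPM at E13.5 and 0.742 to 7.43 CPM at E11.5. Its difference of -9.91 (adjusted p = 0.0459) was lost under 14 of 24 settings. Among those with no count in any E11.5 ECKO library, Cldn2, a tight junction protein, was at 17.5, 28.5 and 4.49 CPM at E13.5, at least 249-fold higher, and at 0 to 1.57 CPM in E13.5 Controls. The bound was 163-fold without E13.5 ECKO library 2. The bounds without E13.5 ECKO library 3, a library of the group at 0, were 207-fold for Sct, 164-fold for Ptn, 135-fold for Rgcc and 82.3-fold for Folr1, and that for Ptn was 179-fold without E11.5 ECKO library 3.

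The 16 genes with the smallest p for the difference of courses, 8 in each direction, hold Rrm2 and Tex101 and 14 genes described here. Srgap3 was at 28.6, 23.2 and 24.2 CPM in E13.5 ECKO cells, against 53.4 to 96.5 CPM at E11.5, and at 120 to 279 CPM in E13.5 Controls, against 53.1 to 66.1 CPM. It fell by 1.56 in ECKO and rose by 1.77 in Controls, and the difference was -3.35 (SE 0.41, adjusted p = 0.000795). Lrrn4, a leucine-rich repeat membrane protein, was at 7.29, 5.60 and 6.96 CPM, against 28 to 55.8 CPM, and at 64.7 to 83.5 CPM in E13.5 Controls, against 25.2 to 49.3 CPM (difference -3.59, SE 0.52, adjusted p = 0.00178). In both genes the E13.5 ECKO libraries were the lowest and the E13.5 Controls the highest of the 4 groups. Heg1, an endothelial membrane protein, and Cwc27, a spliceosomal isomerase, had differences of -2.79 and -2.44. Aif1l, an actin-binding protein, Dsg2, a desmosomal cadherin, and Sdc1, a cell surface proteoglycan, fell in ECKO cells, at 0 to 0.215, 0 to 0.528 and 1.91 to 5.64 CPM at E13.5, against 42.8 to 82.0, 18.1 to 44.1 and 44.98 to 79.1 CPM at E11.5. E13.5 Controls kept 7.92 to 45.6, 7.57 to 31.6 and 32.1 to 63.0 CPM, and the differences were -6.39, -7.11 and -3.55.

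In the other direction most of the genes fell in Controls and less or not by the test in ECKO cells. Ubb, a ubiquitin gene, was at 52.96, 288 and 257 CPM in E13.5 ECKO cells, against 211 to 343 CPM at E11.5, and at 24.6 to 34.4 CPM in E13.5 Controls, against 255 to 367 CPM (difference 2.86, SE 0.50, adjusted p = 0.00826). Chd3, a chromatin remodeller of NuRD, was at 87.5, 108 and 159 CPM, against 89.9 to 167 CPM, and at 5.78 to 21.1 CPM in E13.5 Controls, against 80.9 to 129 CPM (difference 3.01, SE 0.52, adjusted p = 0.00826). Ehd1, of endosomal recycling, Tmsb10, a thymosin, Rpl22l1 and Rpl35a, of the ribosome, and Atp6v1b2, of the vacuolar proton pump, had differences of 2.86, 1.96, 1.97, 2.17 and 2.43. Ribosomal protein genes have many processed pseudogenes, so their counts are uncertain. Atp6v1b2, like Tex101, rose in ECKO cells, at 375 to 425 CPM against 95.4 to 137 CPM. Each of the 16 differences was called under every setting tried that tested the gene.

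**Figure D5:**
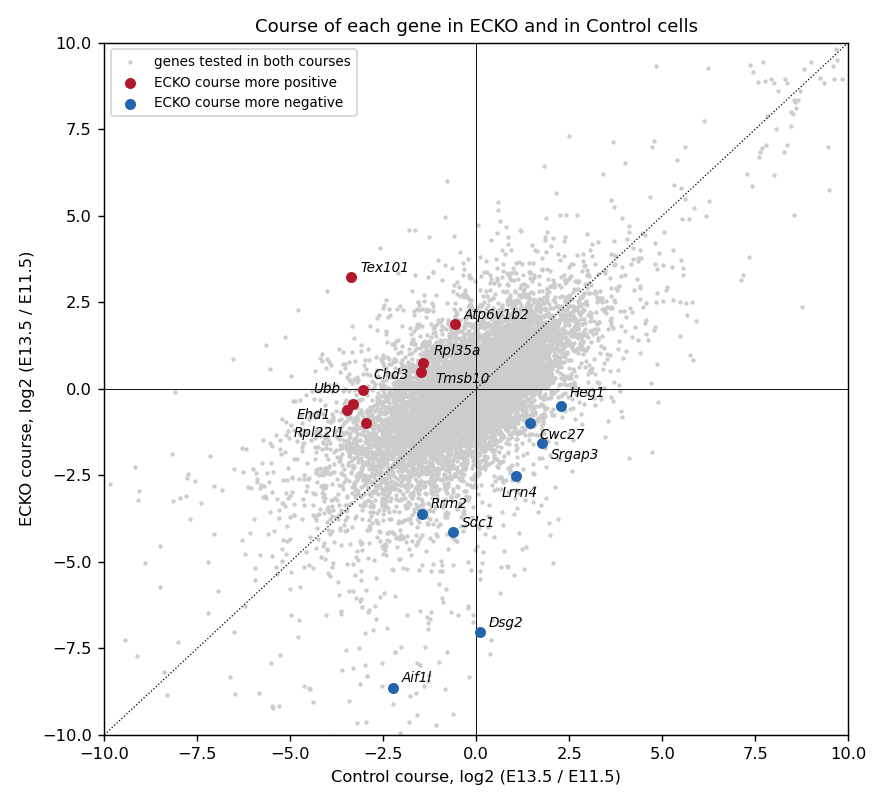
Log2 ratio of E13.5 to E11.5 in ECKO cells (vertical) and in Control cells (horizontal) for 11681 genes tested in both (31 lie outside the axes); the dotted line marks equal courses. The 8 red genes, such as Tex101 and Ubb, lie above the line and the 8 blue genes, such as Srgap3 and Aif1l, below it.

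The sorted cells carried germ cell markers throughout. The summed level of 10 germ cell markers was 2968, 2564.5 and 3423 CPM in E13.5 ECKO cells, against 1460 to 1722 CPM at E11.5, on the scale of total counts (exact two-sided permutation p = 0.0571, the smallest that 35 splits allow). Their sum in Controls was 2836 to 3389 CPM at E13.5 and 1586 to 1869 CPM at E11.5. Supporting cell markers summed to 41.8 to 104 CPM at E13.5 and 56.4 to 131 CPM at E11.5, with 3 of 25 at 0 and Sox9 at 0 to 0.862 CPM and Amh at 0 to 1.06 CPM at E13.5. In Controls the supporting cell sum was 17.4 to 229 CPM at E13.5 and 85.3 to 91.7 CPM at E11.5. Interstitial and mesenchymal markers summed to 171, 386 and 438 CPM, against 59.1, 94.1, 140.0 and 577 CPM, with 4 of 20 at 0 at E13.5. Endothelial markers summed to 33.9 to 77.4 CPM, against 159 to 456 CPM, with 1 of 11 at 0, and blood markers to 3.26 to 11.4 CPM, against 15.6 to 116 CPM, with 8 of 12 at 0. Mesonephric and epithelial markers summed to 40.3 to 51.8 CPM, against 50.2 to 151 CPM, with 1 of 10 at 0. Their Control sums were 16.5 to 70.1 CPM at E13.5 and 17.3 to 75.2 CPM at E11.5. Pax2 was at 0.120 to 3.26 CPM and Cdh16 at 0.176 to 0.598 CPM in E13.5 ECKO cells, with E13.5 Controls at 0 to 2.44 and 0 to 0.641 CPM. Hba-a1 was at 0 in every library and Ptprc at 0 in the E13.5 ECKO libraries. Pecam1, an endothelial gene that PGCs express too, was at 74.8, 8.08 and 3.88 CPM, against 90.1 to 151 CPM. On the same TMM scale all endothelial markers summed to 82.2, 47.6 and 30.1 CPM, against 142 to 395 CPM. In Controls Pecam1 was at 169 to 225 CPM at E13.5 and 175 to 286 CPM at E11.5. Cdh5, the other defining endothelial marker, was at 5.37 to 7.32 CPM in E13.5 ECKO cells, against 2.62 to 53.6 CPM, so its groups overlapped. The part of other cell types in the results above was not tested, and in bulk RNA fewer cells of a type and less RNA per cell cannot be told apart. Of 20 dissociation stress genes 2 rose and 6 fell, with 1 to 3 lower without E13.5 ECKO library 2 or any one E11.5 ECKO library. Hspa8 was at 4453 to 5165 CPM, against 818 to 968 CPM, and Ier2 fell by 5.33, and Controls moved alike, by 2.43 and -3.98.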

How the data were processed

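The authors deposited raw read counts per gene symbol, in 1 table per stage and sex, and the whole numbers in the columns of the 15 XY bulk libraries were used as deposited. HISAT2, edgeR and the mouse build mm9 are named per the submitters' processing notes; how reads were counted, with which annotation and whether by strand, was not given in the sources used here, so reads of overlapping or antisense genes, and of multi-copy families, cannot be assigned with certainty. The 2 XY tables were joined on symbol and normalized together by TMM (edgeR 4.0.16, R 4.3.3). Genes passing filterByExpr were tested with edgeR's quasi-likelihood test, E13.5 against E11.5, in the 7 ECKO libraries, in the 8 Control libraries, and as an interaction over all 15, with Benjamini-Hochberg adjustment over all genes tested and a threshold of 0.05. CPM in the text are on 1 TMM scale over the 15 libraries unless total counts are named. DESeq2 1.42.0, other scalings and filters, a replicate block and fits leaving out each library were alternatives, and the scripts were tested on simulated data.

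The genes named are Eed, the called genes of largest change, up to 4 called members of each list in each direction, a set of germ cell, cell cycle and PRC2 genes, and the 8 genes in each direction with the smallest p for the difference; list members called in that difference were added after their values were seen. Members and lists were chosen with earlier results of these data known. Meioc, Sgol2 and Rhox5 had no symbol in the tables. The alternatives with Rn45s left out, with a narrower gene set, and without both libraries that stand apart, and the fold bounds without each ECKO library, were added after seeing the data. Promoters are RefSeq windows of GRCm38.p6, matched by symbol; a motif share was compared only for lists with a window for at least 80% of members, and for the piRNA list 30 of 38 (78.9%) had one, so that check is void.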

Additional observations from a re-analysis of the deposited data

Results flagged for a closer look

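In the 4 E11.5 ECKO libraries, 1 library lay far from the other 3 for 11 genes named here and 1 marker sum, by Dixon's test. Chance flags about 1 in 20 groups. The test was run on the genes named in the text and on each marker sum, so some flags would arise by chance alone. The share flagged over all genes was not taken, so the flags are a description. Library 1 was the far one for Lefty1 (40.5 CPM), Otx2 (8.69 CPM), Bak1 (39.1 CPM), Rhox9 (433 CPM), Taf7l (4.69 CPM, the lowest) and Trp53 (438 CPM). Library 2 was far above the others for Mael (29.9 CPM) and Rrm2 (266 CPM), and library 3 for Birc5 (198 CPM). Library 4 was far above for Cdkn1c (194 CPM) and for the summed interstitial and mesenchymal markers (577 CPM of total counts), and below for Rb1 (43.4 CPM).

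The log2 change from E11.5 to E13.5 differed between ECKO and Control cells, by the interaction term of edgeR, for 35 genes named here. Nearly all of them were named because this same test called them, so their number and grouping are no separate result. Over all 14447 genes tested 1.2% were called. Many of the calls were lost under some settings, as given with each gene above. The log2 change was more positive in ECKO cells for the germ cell genes Tex101 (6.49), Tdrd9 (6.78), Taf7l (4.55), Nanos3 (4.40), Morc1 (2.97), Mov10l1 (2.35) and Piwil2 (2.28), and for the imprinted genes Phlda2 (7.78) and Peg10 (3.89). The same held for Chd3 (3.01), Ubb (2.86), Ehd1 (2.86), Atp6v1b2 (2.43), Rpl35a (2.17), Rpl22l1 (1.97) and Tmsb10 (1.96). The log2 change was more negative in ECKO cells for Tfap2c (-2.12), Rrm2 (-2.15), Mcm2 (-1.19), Bak1 (-6.06), Pmaip1 (-2.98), Ccng1 (-2.13) and Trp53 (-1.46). Bmi1 (-2.09), Bmpr1a (-1.50), Peg3 (-2.01) and Pdk4 (-8.04) were also more negative. So were Ptn (-9.91), Dsg2 (-7.11), Aif1l (-6.39), Lrrn4 (-3.59), Sdc1 (-3.55), Srgap3 (-3.35), Heg1 (-2.79) and Cwc27 (-2.44).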

How the results depend on the processing

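Replicate numbers did not pair the libraries: same-numbered libraries correlated in their deviations from the group means at 0.026, 0.013 and -0.041 in ECKO and between -0.047 and 0.061 in Control. With the number as a replicate block the ECKO course had 752 genes higher and 782 lower, and the difference of courses 17 more positive and 29 more negative. DESeq2 called 2160 higher and 2180 lower in ECKO, and 484 and 427 in the difference, and gave Eed -1.79 (adjusted p = 0.0116); the fit of all 15 libraries gave Eed -1.82 (adjusted p = 0.00604). In the difference, no filter on low counts gave 150 and 156, DESeq2's size factors 65 more negative, and leaving out both libraries that stand apart 402 and 718. Total counts without Rn45s gave 1444 genes higher in Control. Leaving out each library in turn gave 954 to 1804 higher and 759 to 1897 lower in ECKO, 1975 to 2718 and 1773 to 2959 in Control, 13 to 482 and 16 to 785 in the difference, 85 to 131 list members higher and 73 to 160 lower, and -2.18 to -1.39 for Eed.

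Of 94 named genes called in the ECKO course 77 were called under every setting that gave them an adjusted p. The other 17 lost the call in some setting without changing sign. Many of the 94 were named for a large change or small p in the same fit, which favours their stability. Of all 2747 calls in the ECKO course, 53.1% were kept with the replicate block. Leaving out each library in turn kept 61.4% to 90.6%. Some genes, such as Dnmt3l, had no adjusted p in every setting. Sign changes were seen only for genes not called in ECKO. Leaving out each library in turn gave -0.85 to 1.51 for Lefty1, -0.34 to 1.62 for Cdkn1c, -1.38 to 0.32 for Mki67, -0.82 to 0.39 for Suz12, -0.29 to 0.17 for Chd3, -0.19 to 0.17 for Bmpr1a, -0.24 to 0.54 for Ccng1 and -0.80 to 0.016 for Peg10. Without both libraries that stand apart the values were 0.31 for Chd3, 0.072 for Bmpr1a, -0.17 for Ccng1 and 0.16 for Peg10. The block gave 0.12 for Chd3 and 0.084 for Bmpr1a, DESeq2's size factors and test 0.0035 and 0.0029 for Bmpr1a, and total counts without Rn45s -0.015 for Ccng1. The cause of these changes was not tested. The stricter filter left 4 Hox genes tested, of which 0 were called, and DESeq2 called 7 higher and 5 lower of 39. The part of depth in this was not tested. Folds against a group at 0 are bounds set by depth, since the floor is 3 counts over the group.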
